A study of Homo sapiens with 6 samples.

Results

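The genes described here are the 5 subunits of the transcription factor NF-kB, 4 members of the IkB family and the feedback deubiquitinase TNFAIP3. The subunits are NFKB1, NFKB2, REL, RELA and RELB, and the IkB genes are NFKBIA, NFKBIB, NFKBIE and NFKBIZ. These 10 genes were found by gene symbol among the 58735 genes in the deposited table, and each symbol matched 1 row. The table holds FPKM, fragment numbers scaled by gene length and library size. Polyadenylated RNA was sequenced from A375, an established human cutaneous melanoma line that carries an activating BRAF mutation. The labels give 3 libraries of cells kept in the solvent DMSO and 3 of cells treated with CuB, both for 6 h. CuB stands for cucurbitacin B in the series title, a bitter plant triterpenoid. The labels disagree on the dose of CuB, with 0.2 µM where the treatment is described and 100 nM in the names of the libraries. They name no genetic change, and both groups are the same single line. The labels do not say that replicates were separate cultures, so p-values measure the spread between these libraries, which may be technical.

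NF-kB proteins share a Rel homology region and bind DNA as pairs. NFKB1 and NFKB2 encode the precursors p105 and p100, which are processed to p50 and p52, while REL, RELA and RELB carry transactivation domains. In resting cells the IkB proteins of NFKBIA, NFKBIB and NFKBIE hold the dimers in the cytoplasm. In the canonical pathway, receptors of the TNF and interleukin-1 families act through adaptors and the IKK kinase complex, which marks IkB for degradation. In the non-canonical pathway, the kinase NIK (MAP3K14) drives the processing of p100 and so releases RELB. Several of the genes for subunits and inhibitors are themselves NF-kB targets, which closes feedback loops. In melanoma, NF-kB activity is known for its part in cytokine production and survival signalling.

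The DNA before the start sites of these genes is shown first, because kB sites there are how NF-kB can act on its own genes. RefSeq start sites (GRCh38.p14) were at hand for 8 of the 10 genes, some with more than 1 start, and not for RELB and NFKBIE. The 250 bases before each of 14 starts were searched on both strands for the kB decamer, the usual consensus of the NF-kB site. It was found before 9 of the 14 starts, in 7 of 8 genes, and in 9.96% of all 35116 windows of this length (11.8% of 27305 genes with any start). RELA had none. In the sequences below, printed 5′ to 3′ on the strand of the gene, capitals mark the decamer, and matches that overlap are joined. Not every match is printed.
NFKBIA, chr14:35404811-35404840, minus strand: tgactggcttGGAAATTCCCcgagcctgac
TNFAIP3, chr6:137867188-137867217, plus strand: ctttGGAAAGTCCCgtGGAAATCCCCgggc
NFKB1, chr4:102501300-102501329, plus strand: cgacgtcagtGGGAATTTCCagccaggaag
NFKB2, chr10:102394462-102394491, plus strand: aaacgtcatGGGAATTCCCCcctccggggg
NFKB2, chr10:102395674-102395703, plus strand: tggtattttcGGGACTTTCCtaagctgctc
REL, chr2:60881518-60881547, plus strand: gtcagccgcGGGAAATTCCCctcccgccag
NFKBIB, chr19:38899932-38899961, plus strand: ggcgtggtgGGGAATTTCCCgcagggcgga
NFKBIZ, chr3:101827757-101827786, plus strand: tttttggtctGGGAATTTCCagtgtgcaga

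Position is counted back from the base before the start site, as -1. The match of NFKBIA lay at -81 to -72 and the pair of TNFAIP3 at -67 to -46. The match printed for NFKBIZ lay farther off, at -223 to -214, and another lay at -239 to -230 before a second NFKBIZ start. NFKB2 had further matches that are not printed, at -78 to -69 before 1 start and at -176 to -167 before another. By GENCODE 29, the printed stretches of NFKBIA and NFKBIZ are outside genes. Those printed for TNFAIP3, REL and NFKB2 are in non-coding exon sequence of the same gene because other transcripts start earlier. That of NFKB1 is in an exon of the non-coding gene AF213884.3, and that of NFKBIB is in an intron of NFKBIB. The 250 bases before NFKBIA, the best known feedback inhibitor, lie outside genes as a whole and are given for context, on the minus strand of chr14:35404750-35404999.
NFKBIA: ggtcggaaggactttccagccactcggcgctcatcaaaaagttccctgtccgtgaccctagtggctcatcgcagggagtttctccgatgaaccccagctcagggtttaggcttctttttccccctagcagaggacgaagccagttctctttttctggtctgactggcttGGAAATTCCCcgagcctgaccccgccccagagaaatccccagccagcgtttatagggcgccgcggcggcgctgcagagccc

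The AP-1 site TGANTCA, bound by JUN and FOS proteins, was found in 1 of the 14 windows, that of the second NFKBIB start, against 6.57% of all windows. The cyclic AMP response element TGACGTCA was in 0 of the 14, against 1.65% of all. A looser kB pattern that includes the decamer, GGG and CC with any 5 bases between them, was in 13 of the 14 windows but also in 54.4% of all windows. A match describes letters only and is not a measured binding site.

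mRNA of all 10 genes rose with CuB. At an adjusted p under 0.05 (limma's moderated test on log2(FPKM + 1), Benjamini-Hochberg over the 13273 genes whose mean reached 1 FPKM), 10 of 10 were higher and 0 lower, where 22.9% of all tested genes were higher and 15.6% lower. On the log2(FPKM + 1) scale as deposited, 9 of 10 rose at least 2-fold, against 4.87% of all tested genes, and RELA was the exception. In 10 of 10 the lowest CuB library exceeded the highest DMSO library, against 29.8% of all tested genes. The median log2 fold change was 1.996, beside 0.0548 over all tested genes. Each of the 10 reached a mean of 1 FPKM in the DMSO libraries alone, so none entered the test only through the group where it was high. With libraries rescaled to equal fragment totals, 10 of 10 were again higher. As deposited, the ratio of mean FPKM ran from 1.95-fold for RELA to 31.1-fold for TNFAIP3.

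**Figure D1:**
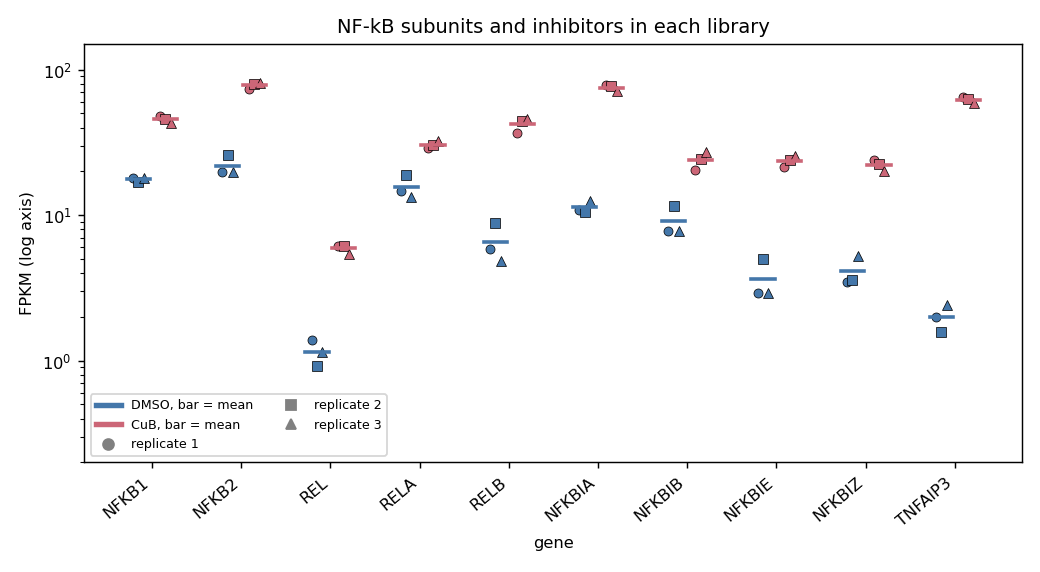
FPKM on a log axis of each gene in each of the 6 libraries, DMSO in blue and CuB in red, with a marker shape for each replicate and a bar for the group mean. The CuB values lie above the DMSO values in all 10 genes, and TNFAIP3 moves from next to lowest with DMSO to the third place with CuB.

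A375 expressed SOX10, the neural crest factor of the melanocyte lineage, at 162 to 256 FPKM in the 6 libraries. Of 10 melanocyte and neural crest markers, 4 (PMEL, TYR, DCT and SOX9) were under 1 FPKM in every library, and MLANA was at most 1.29 FPKM. Of the other markers in that list, S100B, NGFR and AXL moved with CuB alongside the 10 genes, and MITF did not pass. The log2 fold change of MITF was 0.12 (limma adjusted p = 0.475). SOX10 did not pass either, with a log2 fold change of 0.16 (limma adjusted p = 0.535). S100B fell from 26.4 ± 1.61 to 6.64 ± 0.161 FPKM (limma adjusted p = 1.27e-05), while NGFR rose from 3.03 ± 0.587 to 17.3 ± 3.82 FPKM (limma adjusted p = 0.000193) and AXL from 29.3 ± 3.68 to 81.7 ± 7.06 FPKM (limma adjusted p = 0.00015). The summed level of the list was 223.4 to 321.6 FPKM with DMSO and 284.6 to 364.5 FPKM with CuB, and the part of these markers in the results below was not tested. Markers of white blood cells, which respond strongly through NF-kB, were near 0, with 6 of 7 under 1 FPKM in every library. Their summed level was 1.80 to 2.11 FPKM with DMSO and 0.59 to 1.46 FPKM with CuB. All 4 endothelial and all 4 epithelial markers were under 1 FPKM in every library. The libraries held 14845976 to 16137093 fragments assigned to genes, and the 10 genes had between 115 and 5413 fragments in each library. In bulk RNA, fewer cells expressing a gene and less RNA per cell cannot be told apart. Values below are mean ± SD with n = 3 per group.

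Among the subunits, RELB rose most. RELB, the partner of p52 in the non-canonical pathway, was at 5.88, 8.81 and 4.85 FPKM with DMSO, and the CuB libraries read 36.5, 44.3 and 46.0 FPKM. All CuB values were above 36 FPKM and all DMSO values below 9 FPKM. The means were 6.52 ± 2.06 and 42.3 ± 5.07 FPKM, 6.49-fold (log2 fold change 2.55, SE 0.195, limma adjusted p = 0.000142). RELB (ENSG00000104856) lies at chr19:45001430-45038198 on GRCh38.

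REL, which encodes c-Rel, the subunit best known from lymphocytes, was the lowest of the 10 by FPKM in both groups. Its libraries read 1.38, 0.918 and 1.15 FPKM with DMSO and 6.12, 6.17 and 5.41 FPKM with CuB. The means of 1.15 ± 0.228 and 5.90 ± 0.426 FPKM differed 5.14-fold. The fitted log2 fold change of 1.69 (limma adjusted p = 8.17e-05) understates this because of the pseudocount of 1 FPKM, and limma-voom on the recovered fragments gave 2.38. REL (ENSG00000162924) lies at chr2:60881521-60931610, where 2 overlapping non-coding genes on the same strand held 0 to 3 fragments per group.

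The precursor genes rose by less in fold but stood at the highest levels among the subunits. NFKB2, which encodes p100, was at 19.8, 26.0 and 19.9 FPKM with DMSO and at 73.8, 80.1 and 80.7 FPKM with CuB, 3.57-fold (log2 fold change 1.80, limma adjusted p = 7.24e-05). By FPKM it was the highest of the 10 genes in both groups. NFKB1, which encodes p105, was at 18.0, 16.8 and 18.1 FPKM with DMSO and at 48.3, 46.1 and 42.8 FPKM with CuB, 2.60-fold (log2 fold change 1.33, limma adjusted p = 4.96e-05). NFKB1 had the tightest DMSO replicates of the subunits relative to their mean, 17.6 ± 0.735 FPKM. NFKB2 (ENSG00000077150) lies at chr10:102394110-102402529 and NFKB1 (ENSG00000109320) at chr4:102501329-102617302.

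RELA, which encodes p65, the main transactivating subunit of the canonical pathway, rose least. Its values were 14.7, 18.8 and 13.4 FPKM with DMSO and 28.8, 30.2 and 32.5 FPKM with CuB. The lowest CuB library was still well above the highest DMSO library. The fold was 1.95 (log2 fold change 0.93, 95% interval 0.63 to 1.24, limma adjusted p = 0.00183), and over 20 alternative settings the log2 value ran from 0.75 to 1.06. RELA (ENSG00000173039) lies at chr11:65653596-65663094 and shares 9 bases with the lincRNA AP001362.2 on the opposite strand.

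The make-up of the subunit mRNA differed between the groups. Shares within a library do not depend on how libraries are scaled to each other. RELB held 8.46% to 12.3% of the summed FPKM of the 5 subunits with DMSO and 18.9% to 22.2% with CuB. RELA held 23.4% to 26.4% with DMSO and 14.6% to 15.7% with CuB. The ranges of the groups did not overlap for either gene. NFKB2 held 34.8% ± 1.68 with DMSO and 38.6% ± 0.395 with CuB, and REL 1.87% ± 0.522 and 2.92% ± 0.283, in both cases without overlap. For NFKB1, at 28.4% ± 4.28 and 22.6% ± 2.19, the ranges overlapped. The ratio of RELB to RELA was 0.40, 0.468 and 0.362 with DMSO and 1.27, 1.47 and 1.41 with CuB, so RELB mRNA was below RELA in every DMSO library and above it in every CuB library. These shares and ratios are given with no test. An exact two-sided permutation test of 3 against 3 could not go below p = 0.1.

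**Figure D2:**
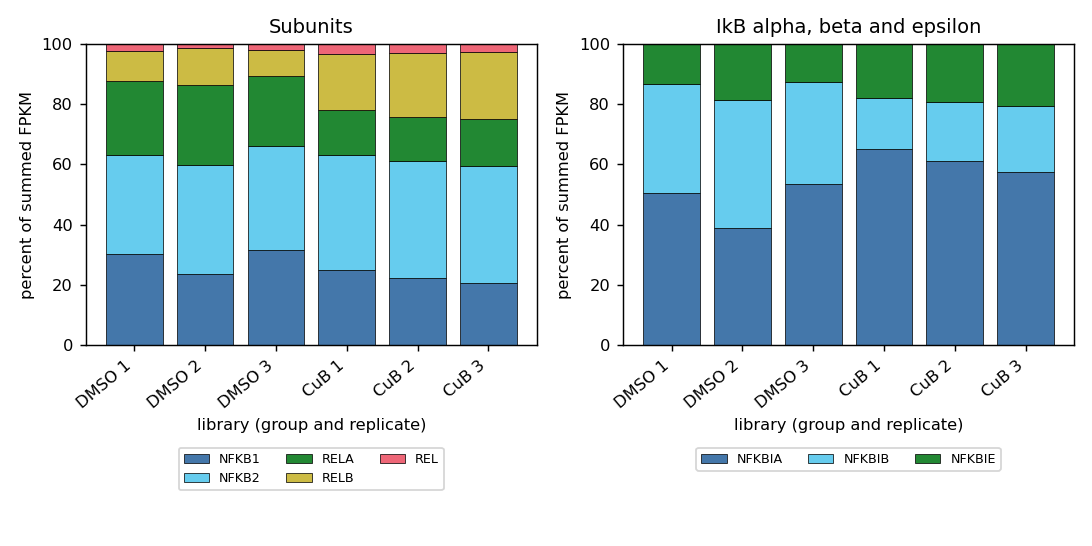
Stacked bars of the percent of summed FPKM held by each subunit (left) and by NFKBIA, NFKBIB and NFKBIE (right) in each of the 6 libraries. RELB takes a larger and RELA a smaller part of the subunit sum in every CuB library, and NFKBIB a smaller part of the inhibitor sum.

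Among the inhibitors, NFKBIA and NFKBIE rose by like folds, and NFKBIB by less. NFKBIA encodes IkB alpha, the fast feedback inhibitor that is degraded on stimulation and made anew by NF-kB itself. It was at 10.9, 10.5 and 12.4 FPKM with DMSO and at 77.9, 76.6 and 71.5 FPKM with CuB. Replicates were close in both groups, at 11.3 ± 1.02 and 75.3 ± 3.39 FPKM, and the fold was 6.67 (log2 fold change 2.64, SE 0.0882, limma adjusted p = 4.96e-06). NFKBIA (ENSG00000100906) lies at chr14:35401511-35404749.

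NFKBIE encodes IkB epsilon, a slower feedback inhibitor. Its libraries read 2.90, 5.02 and 2.93 FPKM with DMSO and 21.3, 24.1 and 25.7 FPKM with CuB, 6.54-fold (log2 fold change 2.44, limma adjusted p = 0.000119). The DMSO library of replicate 2 stood above the other DMSO libraries but far below any CuB library. NFKBIB encodes IkB beta, which is known for slower turnover than IkB alpha. It was at 7.79, 11.5 and 7.83 FPKM with DMSO and at 20.3, 24.5 and 27.1 FPKM with CuB, 2.65-fold (log2 fold change 1.32, limma adjusted p = 0.0013). NFKBIE (ENSG00000146232) lies at chr6:44258166-44265788 and NFKBIB (ENSG00000104825) at chr19:38899700-38908893. NFKBIB shares 163 bases with SIRT2 on the opposite strand, and the library kit does not mark strand. SIRT2 itself had means of 3.69 and 3.22 FPKM.

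The sum of NFKBIA, NFKBIB and NFKBIE was 24.0 ± 2.82 FPKM with DMSO and 123.0 ± 2.98 FPKM with CuB. The sum of the 5 subunits was 62.9 ± 7.49 and 202.6 ± 7.90 FPKM. The inhibitor sum over the subunit sum was 0.361, 0.379 and 0.404 with DMSO and 0.618, 0.604 and 0.599 with CuB. The ratio was higher in each CuB library than in any DMSO library. NFKBIB held 37.5% ± 4.59 of the inhibitor sum with DMSO and 19.5% ± 2.40 with CuB, and NFKBIA 47.7% ± 7.77 and 61.3% ± 3.83, both without overlap. The share of NFKBIE, 14.9% ± 3.20 and 19.2% ± 1.43, overlapped between the groups. As before, no test was run on these sums.

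NFKBIZ encodes IkB zeta, an atypical member that sits in the nucleus and can act as a coactivator on a subset of NF-kB targets. It was at 3.47, 3.60 and 5.27 FPKM with DMSO and at 23.9, 22.5 and 20.001 FPKM with CuB. The lowest CuB value was above the highest DMSO value by more than the spread within either group. The fold was 5.38 (log2 fold change 2.19, SE 0.148, limma adjusted p = 8.18e-05). NFKBIZ (ENSG00000144802) lies at chr3:101827991-101861022.

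TNFAIP3 encodes A20, a ubiquitin-editing enzyme that shuts off signalling upstream of IKK, and its rise was the largest of the 10. The DMSO libraries read 1.999, 1.57 and 2.41 FPKM and the CuB libraries 64.8, 62.3 and 58.9 FPKM. In fragments this was 155, 130 and 190 against 4636, 4684 and 4445. The log2 fold change was 4.4 (SE 0.117, limma adjusted p = 3.82e-06), rank 5 of 13273 tested genes, and 4.98 with limma-voom on the fragments. The ratio of TNFAIP3 to NFKBIA went from 0.175 ± 0.0232 to 0.823 ± 0.00844. TNFAIP3 (ENSG00000118503) lies at chr6:137867188-137883312. It shares 1046 bases with the antisense gene AL357060.1, which had 37 fragments over the 3 DMSO libraries and 127 over the 3 CuB libraries. Because the library kit does not mark strand, fragments in the shared bases cannot be told apart by strand. Whether AL357060.1 itself rose was not tested.

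**Figure D3:**
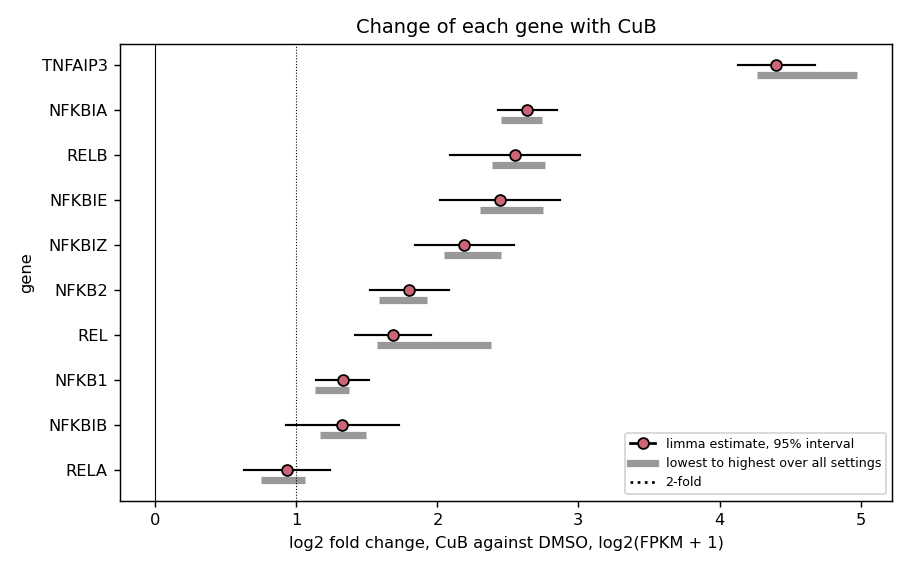
Log2 fold change of each gene on the log2(FPKM + 1) scale, with the limma estimate and its 95% interval as points and lines. Grey bars run from the lowest to the highest value over all settings, including other pseudocounts and limma-voom, and every bar lies above 0.

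By level, the order of the genes changed. FPKM is scaled by gene length, so the order below depends on the lengths used and on effects such as GC content. By fragments over the 3 DMSO libraries, REL at 713 was above TNFAIP3 at 475 and NFKBIE at 445. With DMSO the order from the highest mean was NFKB2, NFKB1, RELA, NFKBIA, NFKBIB, RELB, NFKBIZ, NFKBIE, TNFAIP3 and REL. Of the 9 pairs of neighbours, 5 had library ranges that overlapped, namely NFKB1 with RELA and the run from NFKBIA to NFKBIE. With CuB the order was NFKB2, NFKBIA, TNFAIP3, NFKB1, RELB, RELA, NFKBIB, NFKBIE, NFKBIZ and REL. There 4 pairs overlapped, NFKB2 with NFKBIA, NFKB1 with RELB, NFKBIB with NFKBIE, and NFKBIE with NFKBIZ.

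Replicates of the 10 genes differed along the GC content of their transcripts. In 5 genes DMSO replicate 2 was the highest DMSO library, and these were the 5 with the highest GC content, RELA at 57.1%, NFKBIB at 60.5%, NFKBIE at 61.0%, NFKB2 at 62.4% and RELB at 65.4%. In them DMSO replicate 2 stood at 1.31 to 1.72 times the mean of the other DMSO libraries. In the 5 genes of lower GC content, from REL at 38.7% to NFKBIA at 53.1%, it stood at 0.713 to 0.93 times. The CuB libraries split the same genes in the same way, with replicate 3 at 1.09 to 1.33 times replicate 1 in the first 5 and at 0.837 to 0.917 times in the other 5. Across all tested genes, the deviation of DMSO replicate 2 from its group mean had a correlation of 0.712 with GC content, a description over genes that share 1 library. Without DMSO replicate 2 all 10 genes kept their call, RELB at a log2 fold change of 2.76, NFKBIE at 2.65, NFKBIB at 1.49 and RELA at 1.06. After a GC correction, added once the data had been seen, the log2 fold changes were 0.87 for RELA, 2.49 for RELB and 4.35 for TNFAIP3, and all 10 again passed.

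**Figure D4:**
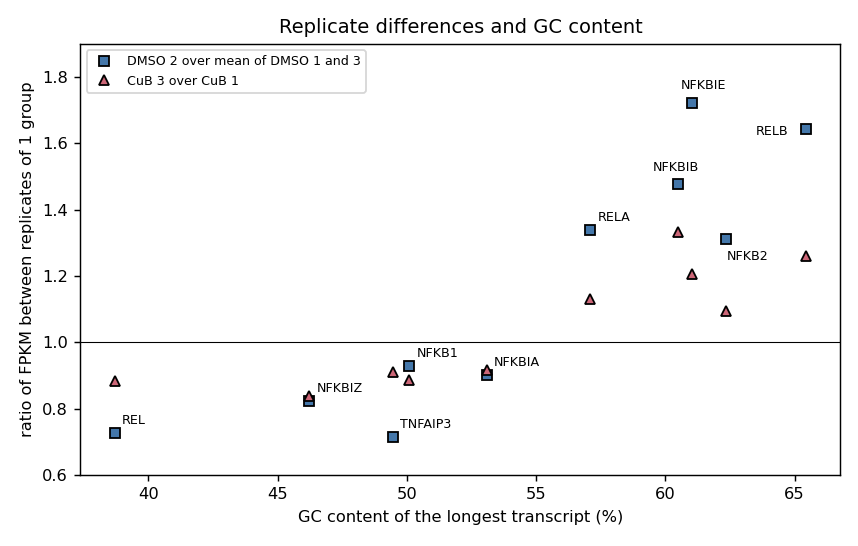
Ratio of FPKM between replicates of 1 group against the GC content of each gene's longest transcript, with DMSO replicate 2 over the mean of DMSO replicates 1 and 3 as squares and CuB replicate 3 over CuB replicate 1 as triangles. Genes above 57% GC lie above 1 and genes below 54% lie below 1 in both.

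Of the other genes that the authors' table puts in the Rel homology family, 1 was higher and 1 lower. These are the 5 NFAT genes, factors with a related DNA-binding region. Such counts among 5 genes are near the shares of all tested genes, 22.9% higher and 15.6% lower. NFATC1 had means of 1.94 ± 0.207 and 2.91 ± 0.147 FPKM (higher with CuB, log2 fold change 0.41, limma adjusted p = 0.0172), and did not pass with equal fragment totals or without DMSO replicate 3, CuB replicate 2 or CuB replicate 3. NFATC4 went from 1.67 ± 0.421 to 0.718 ± 0.0782 FPKM, lower at a log2 fold change of -0.63 (adjusted p = 0.0145 by limma), but not without CuB replicate 2. The pseudocount shrinks this value, which was -1.19 with limma-voom on the fragments, and NFATC4 reached the filter through its DMSO libraries only. NFATC2, NFATC3 and NFAT5 did not pass, at log2 fold changes of -0.20, 0.12 and 0.24. NFATC2 was lower in 5 alternatives (equal sums, quantile normalization, equal fragment totals and both GC corrections), down to -0.42 after quantile normalization, and NFAT5 was higher in 1, GC correction without the block. No test was run of the difference between the NFAT genes and the NF-kB subunits.

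Upstream genes of the pathway changed in part. Of 18 receptors and ligands that activate NF-kB, 11 were tested, 5 rose and 1 fell, with a median log2 fold change of 0.30. Over all tested genes 22.9% rose and 15.6% fell, and the same shares are the background of each list below. TNFRSF12A, the receptor of TWEAK, which feeds the non-canonical pathway, rose from 29.98 ± 13.6 to 128.3 ± 30.6 FPKM, and TNFRSF10B, a TRAIL receptor, from 27.4 ± 0.536 to 72.1 ± 2.03 FPKM. TNF, the classical ligand, had 0, 2 and 7 fragments with DMSO and 83, 66 and 81 with CuB, at most 3.49 FPKM in any library. It passed (limma adjusted p = 0.000153), but it entered the test only through the CuB libraries. IL1A, which encodes interleukin-1 alpha, rose from 7.64 ± 0.757 to 12.9 ± 3.31 FPKM (limma adjusted p = 0.0222), but not with no filter on low values or without DMSO replicate 1 or CuB replicate 2. The gene that fell was TNFRSF1B, the second TNF receptor, from 3.29 ± 0.744 to 1.71 ± 0.307 FPKM. It was named after its values were seen, as were the other single falls below.

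Of 15 adaptors and ubiquitin ligases, all tested, 7 rose and 1 fell (median 0.42), beside 22.9% and 15.6% of all tested genes. BIRC3, the ligase cIAP2, was at 2.998, 2.42 and 4.58 FPKM with DMSO and at 71.1, 56.4 and 47.1 FPKM with CuB, 17.5-fold. BIRC2, its relative cIAP1, rose from 23.2 ± 3.76 to 79.8 ± 12.4 FPKM, TRAF1 from 4.95 ± 0.566 to 16.3 ± 0.528 FPKM and TRAF6, the adaptor of interleukin-1 and Toll-like receptors, from 3.30 ± 0.522 to 7.55 ± 0.912 FPKM. MYD88, the adaptor upstream of TRAF6, fell from 10.97 ± 0.303 to 7.70 ± 0.118 FPKM (log2 fold change -0.46, limma adjusted p = 0.00308).

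Of 15 genes of the IKK complex and its upstream kinases, 14 were tested, 6 rose and 1 fell (median 0.34), beside 22.9% and 15.6% of all tested genes. IRAK2, a kinase of the interleukin-1 receptor pathway, rose 8.62-fold from 2.15 ± 0.32 to 18.5 ± 0.47 FPKM. MAP3K14, the kinase NIK, rose 3.86-fold from 2.96 ± 0.65 to 11.4 ± 1.46 FPKM, and IKBKE, an IKK-related kinase, from 3.58 ± 0.616 to 6.95 ± 0.676 FPKM. IKBKG, the regulatory subunit NEMO, rose from 2.16 ± 0.355 to 4.27 ± 0.832 FPKM, a value that is uncertain because a near-identical pseudogene copy can share its reads. CHUK and IKBKB, the catalytic subunits of IKK, did not pass, at log2 fold changes of 0.28 and 0.13. IRAK4 was lower at an adjusted p of 0.0494 by limma, but not under 7 of 19 alternative settings that tested it.

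Other IkB-family genes, nuclear regulators and brakes, listed apart from the 10, were mixed. Of 7 tested genes among the other IkB-family and nuclear regulators, 2 rose and 0 fell (median 0.37). That is 28.6% higher, near the 22.9% of all tested genes. BCL3, an atypical IkB protein that binds p50 and p52, rose from 6.93 ± 2.06 to 22.1 ± 1.82 FPKM (log2 fold change 1.57, limma adjusted p = 0.000795). NKRF, a repressor, was at 9.48 ± 0.802 and 12.5 ± 0.261 FPKM (limma adjusted p = 0.015), and missed the threshold after quantile normalization, with equal fragment totals and without CuB replicate 2 or 3. Of 11 tested partners of A20 and other deubiquitinases or brakes, 7 rose and 1 fell (median 0.66), again beside 22.9% and 15.6% of all tested genes. ZC3H12A, the ribonuclease Regnase-1, rose 8.02-fold from 1.73 ± 0.268 to 13.9 ± 1.198 FPKM. TNIP1, which binds A20, rose 1.82-fold, CYLD, a deubiquitinase, 1.88-fold and TNFAIP8 from 0.543 ± 0.132 to 1.86 ± 0.183 FPKM. TNFAIP8 is the 1 of the 7 that entered the test only through the CuB libraries. TNFAIP8 and TNFAIP8L1 are in the list but are neither partners of A20 nor deubiquitinases. TNFAIP8L1 fell from 3.95 ± 0.813 to 2.16 ± 0.356 FPKM, though not without CuB replicate 2 (limma adjusted p = 0.0551).

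Target genes of NF-kB other than the 10 rose in nearly all cases tested. Of 26 listed genes 21 were tested, 20 rose and 0 fell, with a median of 2.29, where 22.9% of all tested genes rose. Of the 20, 6 had a DMSO mean under 1 FPKM and so entered the test through the CuB libraries. The median includes these 6. Over all tested genes, 413 had such a low DMSO mean, and 225 of them were higher with CuB. CXCL8, a neutrophil chemokine, was at 27.5, 24.0 and 44.8 FPKM with DMSO and at 721.1, 497.6 and 435.7 FPKM with CuB. MMP9, a matrix protease, had 8, 11 and 11 fragments with DMSO and 457, 581 and 590 with CuB. It entered the test only through the CuB libraries. PTX3, a soluble pattern recognition protein, rose from 4.63 ± 1.17 to 59.1 ± 2.87 FPKM and the chemokine CXCL2 from 2.69 ± 1.12 to 38.1 ± 8.13 FPKM. The tested gene that did not pass was CFLAR, an inhibitor of caspase-8, at 1.40 ± 0.14 and 1.01 ± 0.051 FPKM (log2 fold change -0.25).

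**Figure D5:**
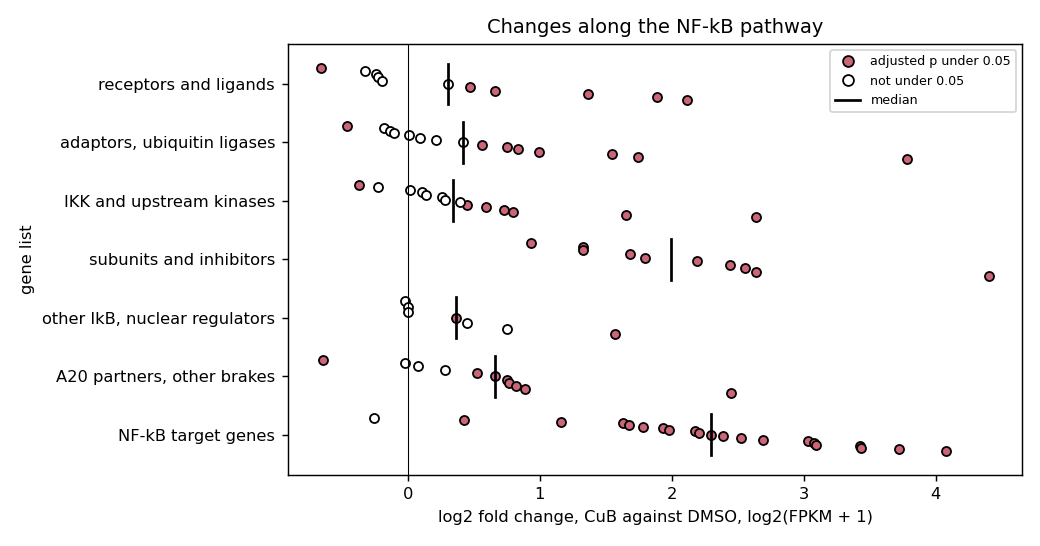
Log2 fold change of every tested gene in 6 lists of the pathway and of the 10 genes, labelled subunits and inhibitors. Points are filled where the limma adjusted p was under 0.05, and a line marks the median of each list. The medians of the 10 genes and of the target genes, 1.996 and 2.29, lie to the right of those of the receptor, adaptor and kinase lists, 0.30 to 0.42. The target list includes 6 genes that entered the test only through the CuB libraries.

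TNFAIP3 was set against the tested genes by the Euclidean distance of log2(FPKM + 1) over the 6 libraries, which weighs both level and change. Genes named by an accession or clone were left out. The 5 nearest were CHAC1, a glutathione-degrading enzyme (distance 0.882), the cytokine IL11 (0.901), BIRC3 (0.992), DDIT3, which encodes CHOP (1.05), and EGR2, a zinc finger factor (1.35). CHAC1 went from 2.10 ± 0.706 to 52.1 ± 5.59 FPKM and IL11 from 2.89 ± 0.407 to 69.6 ± 5.25 FPKM. DDIT3 went from 3.53 ± 0.813 to 58.0 ± 5.62 FPKM and EGR2 from 0.794 ± 0.154 to 71.9 ± 1.13 FPKM. EGR2 entered the test only through the CuB libraries. BIRC3 was the 1 of the 5 that is also in a list of the NF-kB pathway used here.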

How the data were processed

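The authors deposited FPKM values, 1 column per library. TruSeq libraries of polyadenylated RNA are named per the labels' protocols, and GRCh38 is the build in the submitters' processing notes. For aligner, counter and scaling, the method is not given in the sources used here. The coordinates of all 58735 genes equal those of GENCODE 29. FPKM became whole fragments (100% within 0.01) through gene length and the step between low values. Implied library sizes were 1.03 to 1.04 times the fragment total for DMSO and 0.914 to 0.927 times for CuB.

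Genes whose mean reached 1 FPKM were tested as log2(FPKM + 1) with limma 3.58.1 (R 4.3.3, intensity trend, 4 residual degrees of freedom). The fit was also run on simulated counts with no GC effect, unlike these libraries. That run cannot show the error rate of the fit here. Of 20 alternatives, limma-voom used the recovered fragments, and the 2 with GC correction (longest GENCODE transcript) were chosen after seeing the data. The 10 genes and the lists were chosen with earlier results of these data known. Named were, per list, up to 4 passing genes of largest change (where fewer than 2 passed, also the 2 of highest mean). Also named were the 5 genes nearest to TNFAIP3, leaving out genes named by an accession or clone. The NFAT genes, CHUK, IKBKB, CFLAR, MITF, S100B, NGFR, AXL and the single falls were named after their values were seen.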

Additional observations from a re-analysis of the deposited data

How the results depend on the processing

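All 10 genes stayed higher at an adjusted p under 0.05 in every alternative that tested them (199 of 199 values), and REL was not tested with a mean of at least 5 FPKM. The largest adjusted p was 0.0112, for RELA without CuB replicate 2. Their log2 fold changes were lowest with quantile normalization, with equal fragment totals or, for RELB, without DMSO replicate 3. Equal fragment totals moved the median of all tested genes by -0.139, and the genes higher with CuB made up 39.2% of the calls there, against 59.5% as deposited, 46.7% with equal sums and 47.2% after quantile normalization, 52.8% after GC correction and 69.7% with a mean of at least 5 FPKM.

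Over all genes, 3046 were higher and 2072 lower with CuB. The counts were 2020 and 3128 with equal fragment totals, and 985 were lower with a mean of at least 5 FPKM. Leaving out 1 library gave 1965 to 3443 higher and 1297 to 2312 lower, lowest without CuB replicate 2, and 1359 lower without DMSO replicate 1. After GC correction 3592 were lower, and 3404 with GC correction and the replicate block. The replicate numbers pair no samples by the labels, and the deviations of same-numbered libraries correlated at 0.269, 0.118 and -0.357, so the block is given once: it left 2647 higher and 1796 lower, kept the 10 genes, and lost the fall of IRAK4, leaving 0 falls among IKK genes.

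That fall was also lost without a filter and after quantile normalization (0 each), it was not tested with a mean of at least 5 FPKM (0 falls there), and leaving out 1 library gave 0 to 1. GC correction gave 2, with or without the block. Falls among receptors were 0 with a mean of at least 5 FPKM, where TNFRSF1B was not tested, 3 with equal fragment totals, 4 after GC correction with or without the block, and 1 to 3 with 1 library left out. Falls among adaptors were 2 after GC correction with or without the block. Falls in the list of A20 partners and other brakes were 0 with a mean of at least 5 FPKM, where TNFAIP8L1 was not tested. They were 0 to 1 with 1 library left out. Among target genes 1 fall was called with equal fragment totals, limma-voom or GC correction. Rises among other IkB-family genes were 1 with equal fragment totals, 4 with limma-voom and 1 to 3 with 1 library left out. NFATC3 changed sign with equal fragment totals, to -0.0230. Precision at low values is limited by depth, as for TNF. In leave-one-out fits a group keeps 2 libraries.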
